A study of Drosophila melanogaster with 3 samples.

Results

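The genes described here are the translation initiation factor genes of Drosophila melanogaster, taken as every protein-coding gene whose symbol begins with eIF and a digit. There were 44 such genes among the 13945 protein-coding genes on the main chromosome arms. They were split by hand from their symbols. The general factors numbered 33, with eIF2A and eIF2D counted among them. Numbered second or later copies of a factor were 10 (eIF3d2, eIF3f2, eIF3g2, eIF4E3, eIF4E4, eIF4E5, eIF4E6, eIF4E7, eIF4G2 and eIF4H2). eIF4EHP was kept apart from the copies as a cap-binding relative with another known role. Stwl binding was mapped by sequencing of chromatin precipitated with an antibody against GFP (ChIP-seq), from whole embryos aged 0 to 10 hours. The embryos came from a single transgenic line in which Stwl (Stonewall) is stably expressed with GFP at its C-terminus; the promoter that drives the fusion gene is not stated in the labels, and whole embryos mix all tissues. There were 3 biological replicates of this 1 group and no other genotype or treatment, so no conditions were compared and the spread given is that between the 3 replicate peak lists.

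Translation of most messenger RNAs begins when eIF2, carrying the initiator tRNA, and the eIF3 scaffold load the small ribosomal subunit onto an mRNA whose cap is held by eIF4E, with eIF4G as the bridge and eIF4A as the helicase. eIF1, eIF1A and eIF5 govern the scan for the start codon, eIF5B joins the large subunit, and eIF2B recharges eIF2 with GTP. The copies of eIF4E and eIF4G are known in flies for more restricted roles, among them in the testis. Stwl is a nuclear protein with a MADF domain, a DNA-binding fold, and is known for the upkeep of female germline stem cells.

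The eIF4E copies are shown first because bound and unbound genes occur within this family. Below are the bases just before the annotated start of 6 of them in dm6, on the strand of the gene, 5′ to 3′ and cut where an annotated untranslated region begins. Capitals mark CGATA or its reverse complement TATCG, which together make the DNA replication-related element (DRE) TATCGATA where they overlap. The first 3 genes had an IDR summit (defined with the counts that follow) in these bases and the last 3 had none. They lie at chr3L:9402461-9402580 (minus strand), chr3L:8229104-8229223 (plus strand), chr3R:29027175-29027235 (minus strand), chr3L:6665642-6665761 (minus strand), chr3L:7894815-7894879 (plus strand) and chrX:1162390-1162509 (minus strand).
eIF4E1: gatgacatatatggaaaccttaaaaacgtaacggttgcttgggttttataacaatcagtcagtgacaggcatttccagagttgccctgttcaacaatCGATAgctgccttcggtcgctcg
eIF4E3: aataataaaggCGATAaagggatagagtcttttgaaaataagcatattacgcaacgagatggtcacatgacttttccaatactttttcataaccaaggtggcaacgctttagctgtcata
eIF4E6: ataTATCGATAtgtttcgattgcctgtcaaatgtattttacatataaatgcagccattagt
eIF4E4: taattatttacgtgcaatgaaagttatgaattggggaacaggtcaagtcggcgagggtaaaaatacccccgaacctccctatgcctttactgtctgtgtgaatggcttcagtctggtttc
eIF4E5: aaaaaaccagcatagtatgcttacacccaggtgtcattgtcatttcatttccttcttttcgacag
eIF4E7: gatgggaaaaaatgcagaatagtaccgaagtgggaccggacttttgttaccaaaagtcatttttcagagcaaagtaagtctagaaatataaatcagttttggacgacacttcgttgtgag

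CGATA was present in the shown bases of eIF4E1, eIF4E3 and eIF4E6, and the whole DRE in those of eIF4E6. Neither was present in the shown bases of eIF4E4, eIF4E5 or eIF4E7. These letters describe the stretches shown and do not mark tested binding sites. The stretches differ in length, with 61 bases for eIF4E6, 65 for eIF4E5 and 120 for the others. That of eIF4E6 lies between its start and that of the divergent CG1951, 62 bp apart. Its summit was 28 bp from the TSS of CG1951 and 34 bp from that of eIF4E6. The split did not hold for every gene. The 120 bases before eIF3d1, which was bound, hold no CGATA, though it does occur within 100 bp of the eIF3d1 summit. Those before eIF4H2, which was not bound, hold it on the reverse strand. eIF4EHP, a bound relative in the same family, has no CGATA in its promoter or summit window. The same holds for the bound eIF2Bgamma, eIF2beta, eIF3e, eIF3f2, eIF3k and eIF3m. In promoters, taken as 250 bases before to 50 after the gene start, CGATA was present at 20 of 30 bound members (66.7%). That was near the 61.7% of all bound genes. Of the unbound members 7 of 14 had it, beside 47.4% of all genes, bound or not.

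A gene was called bound when a summit of the list that passed the irreproducible discovery rate (IDR) lay within 500 bp of one of its transcription start sites (TSSs). By this rule 30 of the 44 initiation factor genes were bound, or 68.2%, beside 42.1% of all protein-coding genes. The general factors made up 25 of these, 75.8% of the 33. Of the 10 numbered copies 4 were bound, or 40.0%, a share near that of all genes, and eIF4EHP was bound too. Signal values were set by the authors' peak caller and serve here only to order and describe peaks within a list. The median of the strongest summit over the bound initiation factor genes was 568, with a range of 226 to 1095, beside a median of 523 over all 5870 bound genes. Of the 30 summits, 20 lay at or above the median signal of the IDR list, which was 416. The same held for 3865 of the 5870 bound genes overall in the genome, a similar share. Among bound genes the copies were not the weakest: the median over the 4 copies was 585, beside 554 over the 25 general factors. The 6 copies without an IDR summit do not enter this median.

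The replicate lists each hold 30000 peaks, so only their 7241 strongest, as many as the IDR list holds, were scored alone. Initiation factor genes with such a summit within 500 bp numbered 28 in replicate 1, 29 in replicate 2 and 29 in replicate 3, or 65.2% ± 1.31 (SD, n = 3 replicates). All protein-coding genes gave 40.9%, 41.3% and 42.2%. For the general factors the counts were 23, 25 and 24 of 33, or 72.7% ± 3.03 (SD, n = 3 replicates). For the numbered copies they were 4, 3 and 4 of 10, or 36.7% ± 5.77 (SD, n = 3 replicates). The general factors exceeded the copies by 29.7, 45.8 and 32.7 percentage points, a mean of 36.1 ± 8.53 (SD, n = 3 replicates). The difference thus kept its direction in all 3 replicates and was larger than their spread, which says nothing of the small number of copies. In the full pooled list, 36 of the 44 genes had a summit, beside 56.1% of all genes, with 30 of the 33 general factors and 5 of the 10 copies. At full length the replicate lists held a summit at 32, 34 and 35 of the 44 genes, beside 57.2%, 55.6% and 57.2% of all genes.

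**Figure D1:**
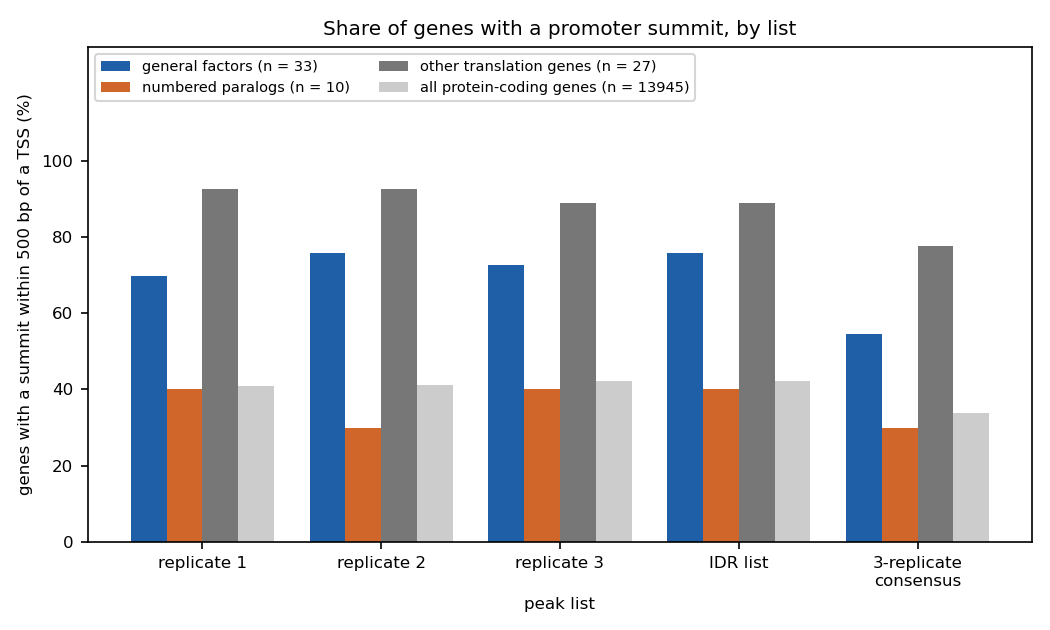
Share of genes (%, from 0) with a summit within 500 bp of a TSS among general factors, numbered paralogs, other translation genes and all protein-coding genes; bar groups are the 7241 strongest summits of each of the 3 replicates, the IDR list, and the consensus of all 3 replicates. In the IDR list the general factors stand at 75.8% and the copies at 40.0%, beside 42.1% of all genes, and the general factors stand above the copies in every list.

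The 3 factors of start-codon scanning were all bound, beside 42.1% of all genes. All 3 lie head to head with a divergent protein-coding gene whose TSS is within 1000 bp, and 70.9% of all such genes were bound. The strongest summit of each lay nearer to a TSS of that neighbour (RpL28, Vps39 and exd) than to its own. eIF1, which keeps the ribosome from starting at a wrong codon, had a summit of signal 484 at 279 bp upstream of its TSS and a weaker one of 388 at 67 bp. At the stronger eIF1 site, replicates 1 and 3 had signals of 83.1 and 292, on the separate scale of each list, at ranks 2523 and 3411. Replicate 2 had its summit at the site nearer to the TSS, 65 bp from it, with a signal of 144 at rank 1286, and none within 150 bp of the stronger IDR summit. eIF1A, its partner on the small subunit, had a signal of 491 at 176 bp upstream, and was ranked 3596, 1276 and 3636 in the 3 replicates. At eIF1A the highest rank was thus that of replicate 2. eIF5, which triggers GTP hydrolysis by eIF2, was near the weak end with 232 at 381 bp upstream and ranks of 3270, 5597 and 6371.

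Both subunit-joining factors were bound as well, beside 42.1% of all genes. eIF5B, the GTPase that brings in the large subunit, had a summit of signal 336 at 357 bp upstream and a second of 251 lying 35 bp downstream of another of its TSSs. eIF6, which holds the large subunit apart until it is ready, had a signal of 597 at 13 bp upstream, with replicate ranks of 2331, 6042 and 1426. The replicates thus differed more at eIF6 than at eIF5B, where the ranks were 4507, 5125 and 4709.

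All 3 subunits of eIF2 were bound, beside 42.1% of all genes, with different strength and different agreement between replicates. eIF2gamma, the GTP-binding subunit, had a signal of 681 at 27 bp upstream, and 103 and 503 in replicates 1 and 3. Replicate 2 listed no summit within 500 bp of eIF2gamma, where the nearest to its IDR summit was 2079 bp away. eIF2beta had 385 at 203 bp upstream, with closely placed ranks of 3036, 4061 and 3745. eIF2alpha, the subunit that stress kinases phosphorylate to slow translation, had 298 at 22 bp upstream. Its replicate signals were 14.8, 58.6 and 222, or ranks 23892, 5246 and 4681, so the summit was far down the list of replicate 1 and within the strongest 7241 of the other lists.

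Of the 5 subunits of the exchange factor eIF2B, 2 were bound, or 40.0%, close to the 42.1% of all genes. eIF2Bgamma, of the catalytic pair, had a signal of 554 at 3 bp upstream and replicate values of 98.7, 94.0 and 356. eIF2Bdelta, of the regulatory part, had 660.2 at 51 bp upstream, with 91.5 in replicate 1, 498 in replicate 3 and no summit within 500 bp in replicate 2. eIF2Bepsilon, the catalytic subunit proper, had no summit within 500 bp in any of the lists, and its nearest IDR summit was 4798 bp away. eIF2Balpha had none in any list either, with the nearest IDR summit at 31707 bp. Both lie head to head with another gene, eIF2Balpha with Vps13B at 90 bp and eIF2Bepsilon with Ocrl at 107 bp between the TSSs. eIF2Bbeta had a pooled summit of signal 93.1 at rank 13416, below the IDR list, and replicate ranks of 9626 in replicate 2 and 16834 in replicate 3. An IDR summit of signal 1066 lay 690 bp from its TSS and 29 bp from that of its divergent neighbour Ugalt, so among IDR summits eIF2Bbeta was called bound only with a limit of 1000 bp, which 45.6% of all genes passed.

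The tRNA carriers outside the main pathway split as well. eIF2A had the strongest summit of all 44 genes, with a signal of 1095 and rank 476, at chr3L:21824896, 69 bp upstream of a TSS. It had 132, 139 and 823 in replicates 1, 2 and 3, at ranks 964, 1427 and 363, within the upper part of every list. eIF2D had no IDR summit, a pooled signal of 159 at rank 8469, no summit in replicate 1, and ranks of 9191 and 8020 in replicates 2 and 3. Its own summit was weak, while an IDR summit of signal 1116 lay 1640 bp away, 90 bp from a TSS of Rpn2.

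**Figure D2:**
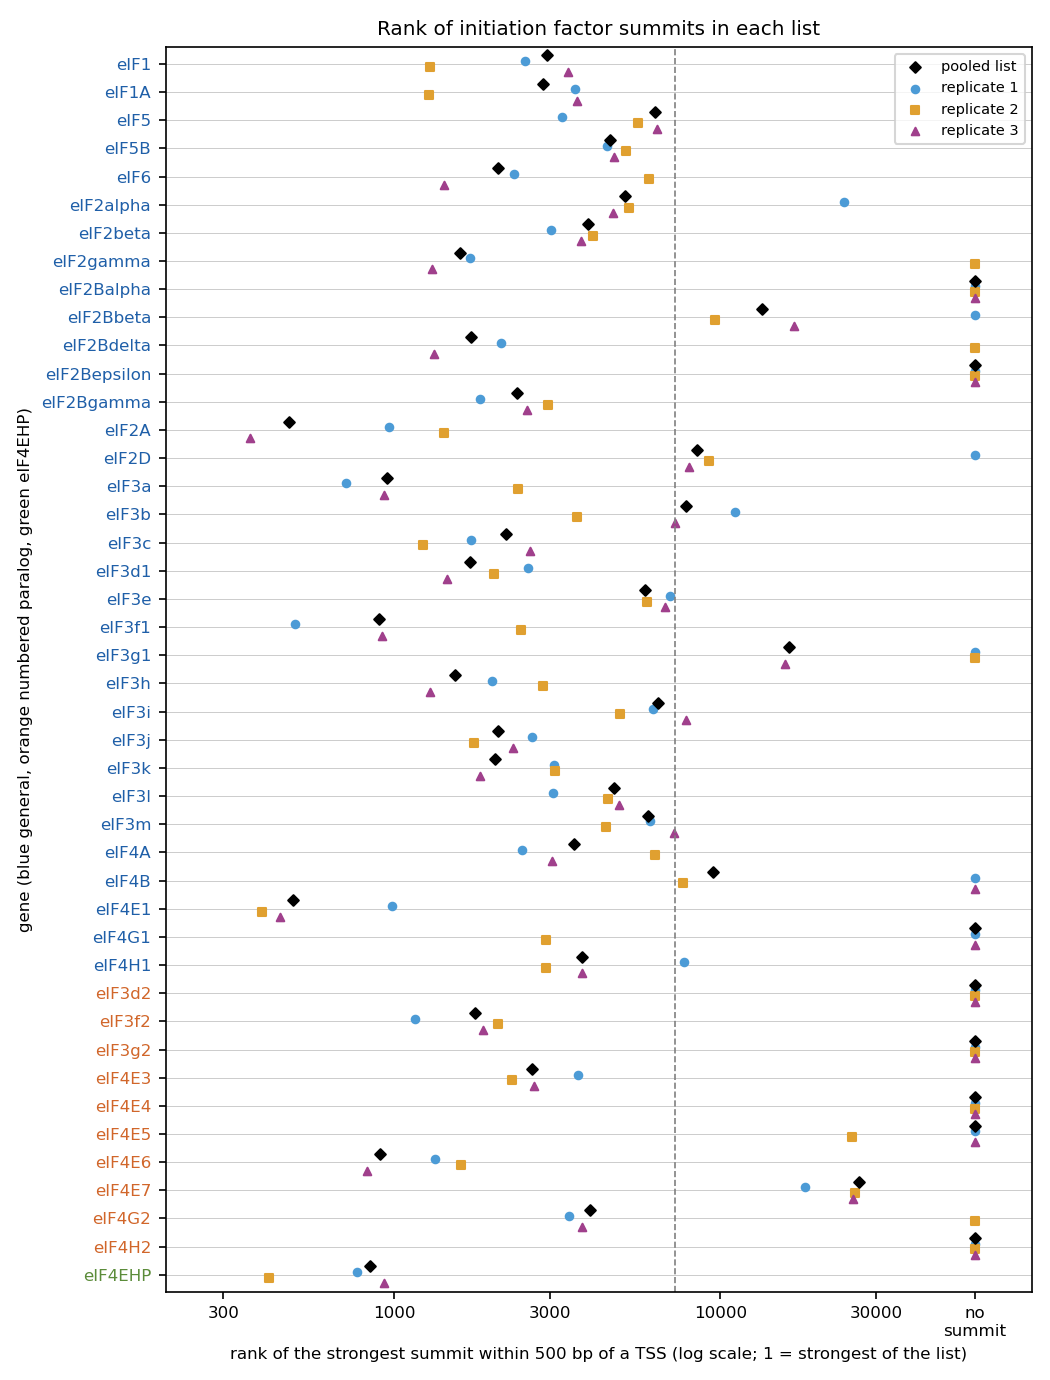
Rank of the strongest summit within 500 bp of a TSS of each of the 44 genes (log scale, 1 = strongest) in the pooled list and the 3 replicate lists; the dashed line stands at rank 7241, and points at the right edge mark lists with no such summit and can cover each other. Most bound genes lie left of the line in all lists, eIF2alpha has replicate 1 at rank 23892, and eIF4G1 has a point in replicate 2 alone.

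Of the 13 general eIF3 subunits, which form the scaffold on the small ribosomal subunit, 11 were bound, or 84.6%, beside 42.1% of all genes. eIF3f1 and eIF3a, a subunit of the core on which the complex is built, were the strongest with signals of 874 and 849.5 at ranks 900 and 955. eIF3f1 had 167, 106 and 581 in the 3 replicates, and eIF3a had 146, 107 and 578. Their values were thus close to each other in all 3 replicates. eIF3h (693), eIF3d1 (661), eIF3k (602), eIF3j (597) and eIF3c (582) followed, with summits 11 to 40 bp upstream of a TSS. eIF3d1, a subunit that can itself contact the cap in mammals, had replicate values of 82.1, 118 and 481.

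The other bound general eIF3 genes had IDR summits in the weaker part of the list: eIF3l (327), eIF3e (251), eIF3m (246) and eIF3i (226). The summits of eIF3e, eIF3m and eIF3l were also farther out, at 146, 140 and 290 bp upstream, and that of eIF3i was at 49 bp. At the edge of the rule stood eIF3i, just inside at pooled rank 6429, and eIF3b, just outside with a pooled signal of 175 at rank 7842. eIF3b, another core subunit, had 24.9, 81.6 and 134 in the replicates, or ranks 11058, 3633 and 7274, so replicate 2 alone placed it among the strongest. eIF3g1, which contacts the helicase side of the scanning complex, had a pooled signal of 78.7 at rank 16159 and was listed in replicate 3 but in neither other replicate.

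The eIF3 copies did not follow their first copies in one way. eIF3f2, whose protein matches that of eIF3f1 at 40.6% of aligned residues, was bound with a signal of 649.6 at 17 bp upstream, and with 123, 116 and 423 in the replicates. Both copies of eIF3f were thus bound in every list. eIF3d2 matches eIF3d1 at 67.5% but had no summit in any list, and its nearest IDR summit was 24686 bp away. eIF3g2 matches eIF3g1 at 72.3% and had no summit either, with the nearest IDR summit at 75377 bp, so neither eIF3g gene was bound.

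The eIF4 group handles the cap. eIF4E1, the main cap-binding protein, had a signal of 1082 at rank 490, with its summit at chr3L:9402487, 27 bp upstream of the gene start, and a second one of 305 at 237 bp. Its replicate values were 131, 219.6 and 766, at ranks 984, 393 and 446, so it was among the first 1000 of every list. eIF4A, the helicase that opens the 5′ end of the mRNA, had 420.4 at 63 bp upstream of an internal TSS, and 64.4, 46.3 and 314 at that site in the replicates. Replicates 1 and 2 had stronger summits, of 84.4 and 48.9, near other TSSs of eIF4A, 924 and 1206 bp from the IDR summit. eIF4A was bound only with all annotated TSSs, since the summit lay 767 bp inside the most upstream gene start; with 1 TSS a gene, 40.4% of all genes were bound. eIF4H1, which helps the helicase, had 401 at 122 bp upstream, with ranks of 7743, 2930 and 3774.

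The other general eIF4 genes had no IDR summit. eIF4G1, the scaffold between cap and ribosome and the only one of the 44 genes on chromosome 4, had a summit of signal 94.8 at rank 2923 in replicate 2, 11 bp from a TSS. Neither the pooled list nor replicates 1 and 3 listed it, and the nearest IDR summit was 5792 bp away. eIF4B, which like eIF4H1 helps the helicase, had a pooled signal of 136 at rank 9516, and was listed in replicate 2 only, at rank 7662. It lies near the centromeric end of 3L, where the nearest IDR summit was 3134340 bp away.

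Among the 5 numbered eIF4E copies, eIF4E3 and eIF4E6 were bound and eIF4E4, eIF4E5 and eIF4E7 were not. eIF4E6 had a signal of 869.5 at chr3R:29027208, 34 bp upstream, with 116, 132 and 607 in the replicates at ranks 1333, 1602 and 829. eIF4E3, which is needed for male fertility, had 519.6 at chr3L:8229182, 42 bp upstream, with 64.5, 110.1 and 345 in the replicates. Both were thus within the strongest 7241 of all 3 lists. eIF4E7 had a weak pooled summit of 52.0 at rank 26557 and ranks of 18165, 25750 and 25477, far below the IDR list. eIF4E5 was listed once, at rank 25368 of replicate 2, and eIF4E4 in no list.

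The bound eIF4E copies were the ones less similar to eIF4E1 in protein sequence. Against eIF4E1, the bound eIF4E3 and eIF4E6 were identical at 48.3% and 51.5% of aligned residues, and the unbound eIF4E4, eIF4E5 and eIF4E7 at 63.1%, 56.8% and 53.5%. eIF4EHP, which binds the cap without eIF4G and represses maternal mRNAs in the fly embryo, was the most distant at 27.4% and was bound with a signal of 897 at rank 847. Its replicate values were 142, 215 and 579.6, with the summit at chr3R:24109118, 158 bp upstream. Over all 11 pairs, 5 of the later genes were bound, at 27.4 to 51.5% identity, and the 6 unbound ones were at 45.7 to 72.3%, so the ranges overlapped.

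In the eIF4G and eIF4H pairs 1 copy each was bound. eIF4G2, a copy needed in male meiosis, was bound with 380.3 at 38 bp upstream and had 67.6 and 269 in replicates 1 and 3, while the general eIF4G1 was not bound. Replicate 2, the list that held eIF4G1, held no summit within 500 bp of eIF4G2. The 2 genes therefore had no replicate list in common. For eIF4H the order was the other way, with the general eIF4H1 bound and eIF4H2 without a summit in any list.

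The IDR summits of these genes recurred in the replicates. The IDR list was made from these same lists, so such recurrence is largely built in and gives no independent support. Within 150 bp of the IDR summit, replicates 1, 2 and 3 had a summit at 30, 26 and 30 of the 30 bound genes, beside 96.7%, 94.3% and 99.1% of all IDR summits. The 4 without a match in replicate 2 were eIF1, at 214 bp, eIF2Bdelta, eIF2gamma and eIF4G2. Of the 30 bound genes, 24 had a summit among the strongest 7241 within 500 bp in all 3 replicates and the other 6 in 2 of them. Those 6 were eIF2alpha and eIF4H1 (not in replicate 1), eIF2Bdelta, eIF2gamma and eIF4G2 (not in replicate 2) and eIF3i (not in replicate 3). Scored on summits shared by the other pair of replicates, 24 members remained without replicate 1, 27 without replicate 2 and 25 without replicate 3, beside 36.4%, 37.3% and 35.9% of all genes. All of these had an IDR summit as well. Genes lost without replicate 1 were eIF2Bdelta, eIF2beta, eIF2gamma, eIF3i, eIF4G2 and eIF5. Of the 14 unbound genes, 6 were in no replicate list even at full length, 4 in 1 list, 2 in 2 and 2 in all 3. The counts of bound and unbound members by number of replicates are not given for all genes. Whether 24 of 30 or 6 of 14 is usual therefore cannot be told.

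**Figure D3:**
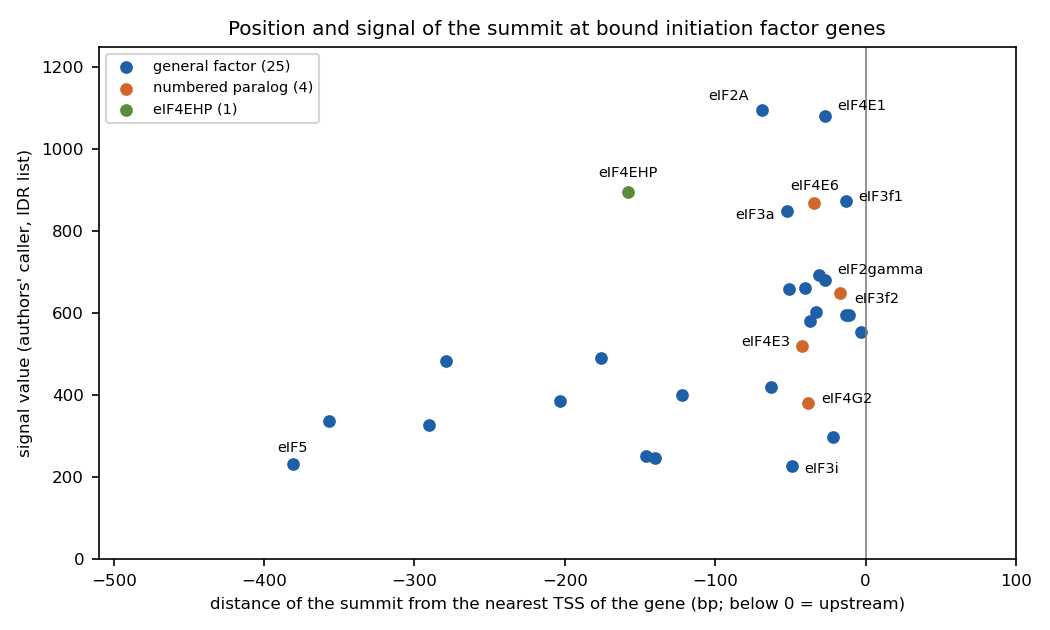
Signal value of the strongest IDR summit (authors' own scale, from 0) against its distance in bp from the nearest TSS of the gene, with upstream below 0, for the 30 bound genes. All points lie upstream, 20 of them within 100 bp, and the strongest are eIF2A at 1095 and eIF4E1 at 1082.

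Position was shared by all bound members. The strongest summit lay upstream of the nearest TSS of its own gene in 30 of 30 cases, beside 90.2% of all bound genes. The median distance was 45.5 bp, beside 76.0 bp over all bound genes, and 20 of 30, or 66.7%, lay within 100 bp, beside 59.9%. For the 25 general factors the median was 51.0 bp and for the 4 copies 36.0 bp. The summits of eIF2A, eIF3h, eIF3j and eIF4A lay 156, 283, 124 and 767 bp inside the most upstream gene start, in an annotated 5′ untranslated exon, but upstream of a later TSS of the same gene.

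Some of these summits also lay near the TSS of a neighbour. Of the 30, 14 or 46.7% lay within 500 bp of a TSS of another protein-coding gene, beside 56.6% of all bound genes. In 9 of the 14 the neighbour's TSS was the nearer one, in 3 that of the initiation factor gene, and in 2 they were equally near. eIF1 shared its strongest summit with RpL28, a ribosomal protein gene, at 279 bp from eIF1 and 102 bp from RpL28. eIF5 shared its own with exd, a homeodomain gene, at 381 and 113 bp, and eIF5B with armi, a piRNA helicase gene, at 357 and 17 bp. eIF2gamma shares a TSS with Su(var)3-9, the heterochromatin methyltransferase gene, so the same summit was 27 bp from both. In the same way eIF4G2 shares a TSS with CG33111, and eIF5 with CG46312. When each summit counted only for the gene with the nearest TSS, 23 of the 44 genes were bound, beside 31.9% of all genes. The 7 lost were eIF1A, eIF2Bdelta, eIF3a, eIF3l, eIF3m, eIF4E6 and eIF5, with eIF4E6 lost to CG1951. Distances to the member and to the neighbour were 52 and 18 bp at eIF3a (CG1074). They were 51 and 7 bp at eIF2Bdelta (roh) and 176 and 43 bp at eIF1A (Vps39). Which gene such a summit acts on was not tested.

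The layout of the promoters was counted for general factors and copies as well. A head-to-head partner, a divergent protein-coding gene with its TSS within 1000 bp, was present at 17 of 33 general factors and 3 of 10 copies, beside 36.2% of all genes. No TSS of another protein-coding gene lay within 2000 bp of 7 of 33 general factors and of 5 of 10 copies, beside 39.2% of all genes. Among head-to-head genes, 13 of 17 general factors and 1 of 3 copies were bound, beside 70.9% of all such genes, so at divergent promoters the general factors were near the background. Among isolated genes, 5 of 7 general factors (eIF2beta, eIF3e, eIF3f1, eIF3k and eIF4E1) and 1 of 5 copies (eIF4E3) were bound, beside 24.7% of all isolated genes. The part of layout in the difference between general factors and copies was not tested.

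The bound genes on X all lay below the median signal of the IDR list. Of the 7 X-linked genes, eIF4H1 (401), eIF2alpha (298) and eIF5 (232) were bound, or 42.9%, beside 44.1% of all X-linked genes. Their median was 298, beside 421 over all bound X-linked genes. In the pooled list 6 of the 7 had a summit, beside 65.5% of all genes on X. The remaining X-linked genes were eIF2Bbeta, eIF2Bepsilon, eIF3g1 and eIF4E7.

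**Figure D4:**
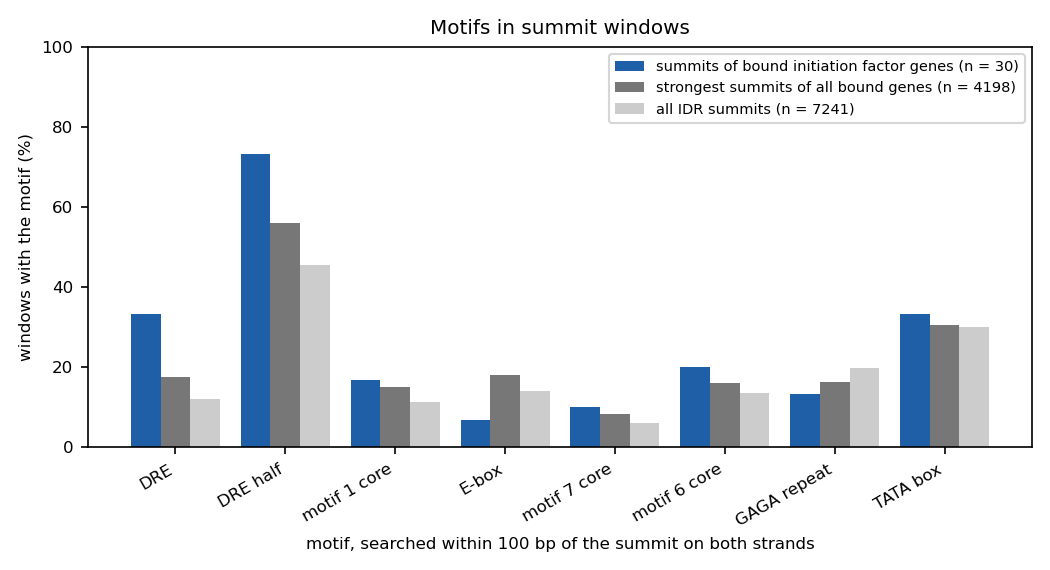
Share of windows (%, from 0) of 100 bp to each side of the summit that hold each of 8 motifs, for the 30 bound initiation factor genes, the 4198 distinct strongest summits of all bound genes and all 7241 IDR summits. The DRE is in 33.3% of the first, 17.6% of the second and 12.0% of the third.

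The DRE is a promoter element of many housekeeping genes, bound in flies by DREF. Some promoters that carry it are shown as the bases just before the annotated start in dm6, all on the minus strand of the arm and written 5′ to 3′ on the strand of the gene, with CGATA and TATCG in capitals. They lie at chrX:16446994-16447113, chr3R:15263459-15263551 and chr3R:4714183-4714302.
eIF2alpha: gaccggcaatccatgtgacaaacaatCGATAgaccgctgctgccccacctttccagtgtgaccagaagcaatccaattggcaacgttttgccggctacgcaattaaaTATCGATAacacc
eIF2gamma: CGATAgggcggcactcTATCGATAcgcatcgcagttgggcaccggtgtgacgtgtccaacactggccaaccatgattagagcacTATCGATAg
eIF3f1: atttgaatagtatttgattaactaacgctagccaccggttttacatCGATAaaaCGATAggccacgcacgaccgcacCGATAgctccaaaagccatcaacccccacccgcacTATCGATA

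Within 100 bp of the summit, TATCGATA was found at 10 of the 30 bound genes, or 33.3%, beside 17.6% of the strongest summits of all bound genes and 12.0% of all IDR summits. The 10 were eIF1, eIF1A, eIF2A, eIF2alpha, eIF2gamma, eIF3a, eIF3f1, eIF4E6, eIF5 and eIF6. eIF2gamma held 3 copies and eIF5 2, and the nearest copy was centred 5.50 to 22.5 bp from the summit, with a median of 17.0 bp. The windows of eIF1, eIF1A, eIF2gamma, eIF3a, eIF4E6 and eIF5 also lie within 500 bp of a neighbour's TSS. Median signal was 639 over the 10 with the DRE and 537 over the other 20, beside 525 and 399.7 over all IDR summits with and without it. The ranges overlapped, at 232 to 1095 with the DRE and 226 to 1082 without.

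In the promoter, taken as 250 bases before to 50 bases after the annotated start, the DRE was found at 11 of 33 general factors and 1 of 10 copies (eIF4E6). It was found at 9.36% of all genes and at 19.2% of all bound genes. Of the 12 members with it, 10 were bound, or 83.3%, beside 86.2% of the 1305 genes with a DRE there, and the unbound 2 were eIF2Bbeta and eIF4B. CGATA alone or within the DRE was in 22 of the 30 summit windows, or 73.3%, beside 56.1% of the strongest summits of all bound genes. The E-box CAGCTG went the other way, at 2 of 30 (eIF2Bgamma and eIF3h), or 6.67%, beside 17.9%. The remaining motifs lay nearer to the background: GGTCACAC at 16.7% beside 15.0%, CATCNCTA at 10.0% beside 8.19%, GTATNTTT at 6 of 30 beside 16.0%, GAGAG at 13.3% beside 16.2% and TATAAA at 33.3% beside 30.5%. All motifs were searched on both strands, and with 30 windows a single one is worth several percentage points.

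Of 27 other genes of translation 24 were bound, or 88.9%, beside 42.1% of all genes. This list was chosen by hand with earlier results of these data known, so the share is descriptive only. Their median signal was 484, beside 523 over all bound genes. Elongation and release factors accounted for 8 of 9 and the other initiation and regulatory genes for 16 of 18. The strongest were eEF1gamma (984), a subunit of the elongation exchange factor, NAT1 (833), an eIF4G-like protein, PEK (770.2), a kinase of eIF2alpha, and pAbp (741), the poly(A)-binding protein. Thor, the 4E-BP that inhibits eIF4E, eEF1delta and mxt, which binds eIF4E in flies, were not bound. Some genes with other symbols in the annotation fell outside the eIF symbol rule. Of these eEF5 (known elsewhere as eIF5A), already counted among the 27, had a signal of 694. Not among the 27 were kra, with 843, and CG7483, the eIF4A3 gene, with 301.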

How the data were processed

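The signal value, per the deposited lists, is set by the authors' peak caller on a scale of its own in each list, and a further deposited column gives the offset of the summit from the peak start. Per the text files deposited with the lists, each replicate list came from that library and 1 control library, the pooled list from all 3 libraries and the control, and the IDR list from these lists. Build dm6 and sonication to 200 to 800 bp are given per the labels. Neither the aligner nor the peak caller nor the IDR threshold is given in the sources used here. The read depth behind the lists is unknown, and no intervals are given.

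Every pooled peak on the 6 main arms (2L, 2R, 3L, 3R, 4 and X) ended within the length of its arm in the Release 6 reference. TSSs are the 5′ ends of all transcripts of a gene in Ensembl BDGP6.54. Printed bases are from the RefSeq Release 6 genome. Coordinates count from 1, and a gene took its strongest summit within 500 bp. The motif search covered both strands of the summit windows and promoters. Proteins were translated from the longest coding sequence and aligned globally with Biopython 1.88 (BLOSUM62, gap opening 11, extension 1, free end gaps). The assignment of summits to genes was checked on simulated data. No test was run, since there is 1 group and members are not replicates. Members, gene lists and motifs were chosen with earlier results of these data known, and every member may be named. In the list of other translation genes, 27 of 28 symbols were matched. Tor was not.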

Additional observations from a re-analysis of the deposited data

How the results depend on the processing

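Under 10 alternatives the initiation factor genes stayed more often bound than all genes. With only the IDR peaks at or above the median signal, the count was 20 of 44 (45.5%, beside 27.7% of all genes), that of general factors 16 of 33, of numbered copies 3 of 10 and of other translation genes 15 of 27. That setting has fewer peaks by construction. A consensus of all 3 replicates gave 22, 18, 3 and 21 for the same groups, beside 33.9% of all genes; the copies, at 3 of 10, were below that share. Without replicate 1, 2 or 3, from summits that the remaining pair shared among its strongest, the members ranged from 24 to 27, general factors from 20 to 22, copies from 3 to 4 and other translation genes from 22 to 25. The genes lost were eIF2Bdelta, eIF2beta, eIF2gamma, eIF3i, eIF4G2 and eIF5 without replicate 1, eIF2alpha, eIF3i and eIF4H1 without replicate 2, and eIF2Bdelta, eIF2alpha, eIF2gamma, eIF4G2 and eIF4H1 without replicate 3. A limit of 250 bp lost eIF3l and eIF5, and 1 TSS a gene lost eIF4A. Counting a summit for the gene with the nearest TSS only left 23 members, 19 general factors and 3 copies (without eIF4E6), beside 31.9% of all genes. In all these settings the share of general factors exceeded that of copies. The median signal of bound members was 582 to 655 in the settings that recompute it, beside 568. No paired analysis was possible because only 1 group is labelled. With 10 copies, 1 gene moves their share by 10 percentage points.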
